A study of Ipomoea batatas with 9 samples.

Results

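The enzymes that make and break down trehalose were followed in storage roots of sweetpotato (Ipomoea batatas, cultivar Xushu 18). They were the contigs whose deposited product description names trehalose or alpha,alpha-trehalase, 46 of the 110110 contigs of the assembled transcriptome. The word trehalose itself stood in 22 descriptions, and the other 24 contigs were described as alpha,alpha-trehalase. Roots were sampled without storage, after storage at 14 °C or after storage at 4 °C. The relative humidity was 85% in the stores of either temperature. All roots were of the one cultivar and no other treatment is named. There were 3 libraries in a group, and 7 roots were pooled for a library. Means are over these 3 libraries, and a value after ± is the SD where SE is not written. No source used here states how long the sequenced roots had been stored, and against roots without storage the effects of time and of temperature cannot be told apart. The study was about the response of the root to cold, and sweetpotato roots are injured by chilling.

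Trehalose is a sugar built from glucose units. Trehalose 6-phosphate synthase (TPS) joins UDP-glucose and glucose 6-phosphate into trehalose 6-phosphate, trehalose 6-phosphate phosphatase (TPP) removes the phosphate, and trehalase splits trehalose into glucose. In most flowering plants trehalose itself is scarce, and trehalose 6-phosphate is known as a signal of sucrose supply that restrains the kinase SnRK1 in several tissues. In Arabidopsis, TPS1 is the main active synthase and belongs to class I. The class II proteins, TPS5 to TPS11 in Arabidopsis, hold a synthase-like and a phosphatase-like domain, and catalytic activity has been hard to show for most of them.

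By symbol, 6 of the 46 contigs were class I (TPS1), 13 were class II (4 TPS5, 1 TPS6, 3 TPS7, 4 TPS9 and 1 TPS11), 3 were phosphatases (TPP4, TPPB and TPPE) and 24 were trehalases. The product descriptions cut across these symbols. Of the 13 class II contigs, 11 were described as trehalose-phosphatase and 2 as synthase, while all 13 carried the gene ontology term of synthase activity. None of the 3 TPP contigs carried that term. The symbol was therefore used here to name the class. Class II contigs were 1022 to 3712 bases long (median 3094), whereas the phosphatase contigs were fragments of 474 to 586 bases. Trehalase contigs were 223 to 1975 bases long (median 585). Of these 24, 10 had the symbol TRE1, 13 a rice locus name (Os10g0521000) and 1 no symbol. Their component numbers in the assembly fell into 8 runs of adjacent numbers, the longest with 6 contigs. Sweetpotato is polyploid, and contigs of one run may be pieces or copies of one gene that share reads, so contigs are not independent genes.

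Total estimated counts were 67643612 to 95421913 per library. Levels are given as CPM, counts scaled to a common library size with TMM factors, and a count of 0 allowed up to 0.0318 to 0.0426 CPM in a library (3 counts, counting error only). Changes were tested for each contig with edgeR's quasi-likelihood test, and a contig was called at a Benjamini-Hochberg adjusted p under 0.05 over all 94802 tested contigs. Of the 46 trehalose contigs 43 were tested, and the 3 left out by the filter on low counts were TRE1 fragments. The 3 comparisons share their libraries and are not independent of each other. As a check of the tissue, the 9 contigs of sporamin, the main storage protein of the root, were summed. Their sum was 23.5 to 232 CPM at 4 °C, 26000 to 34900 CPM at 14 °C and 69600 to 109000 CPM without storage. In whole roots, fewer cells of a type and less RNA per cell cannot be told apart.

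Between the stores the family moved in both directions, with a share of rises near that of all contigs. At 4 °C against 14 °C, 12 of 43 contigs (27.9%) rose and 18 (41.9%) fell. Of all tested contigs 23.8% rose and 24.0% fell (47.8% in either direction). Of the 43, 5 reached the filter on low counts only through the group where they were highest (1 TPS1, 2 TPP and 2 trehalase contigs), so that a difference was built into their being tested. Of the other 38, 10 rose and 16 fell, where 23.8% and 25.0% did among all contigs that reached it without their highest group, and the median log2 fold changes were -0.60 and -0.07. In this narrower count 9 of 13 class II contigs rose and 4 fell, 1 of 5 class I contigs fell and 0 rose, 11 of 19 trehalase contigs fell and 0 rose, and the 1 phosphatase contig, TPPE, rose. Some trehalase calls lay near the threshold. Over all 21 tested trehalase contigs 12 fell, and 9 to 12 did with a single library left out. The call of comp38487_c24 (-0.55, edgeR adjusted p = 0.049) was lost in 11 of 16 alternatives. Among contigs of any kind with at least 5 CPM in some group, which include all class II contigs, 41.1% rose and 28.3% fell. Libraries of both temperatures did not overlap for any class II or phosphatase contig, for 15 of 21 trehalase contigs and for 3 of 6 class I contigs, against 60.4% of all tested contigs. These counts include the 5 contigs set aside above. For the 1 TPS1 and 2 TPP contigs among them, which were highest in a store, the filter favoured such a separation.

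**Figure D1:**
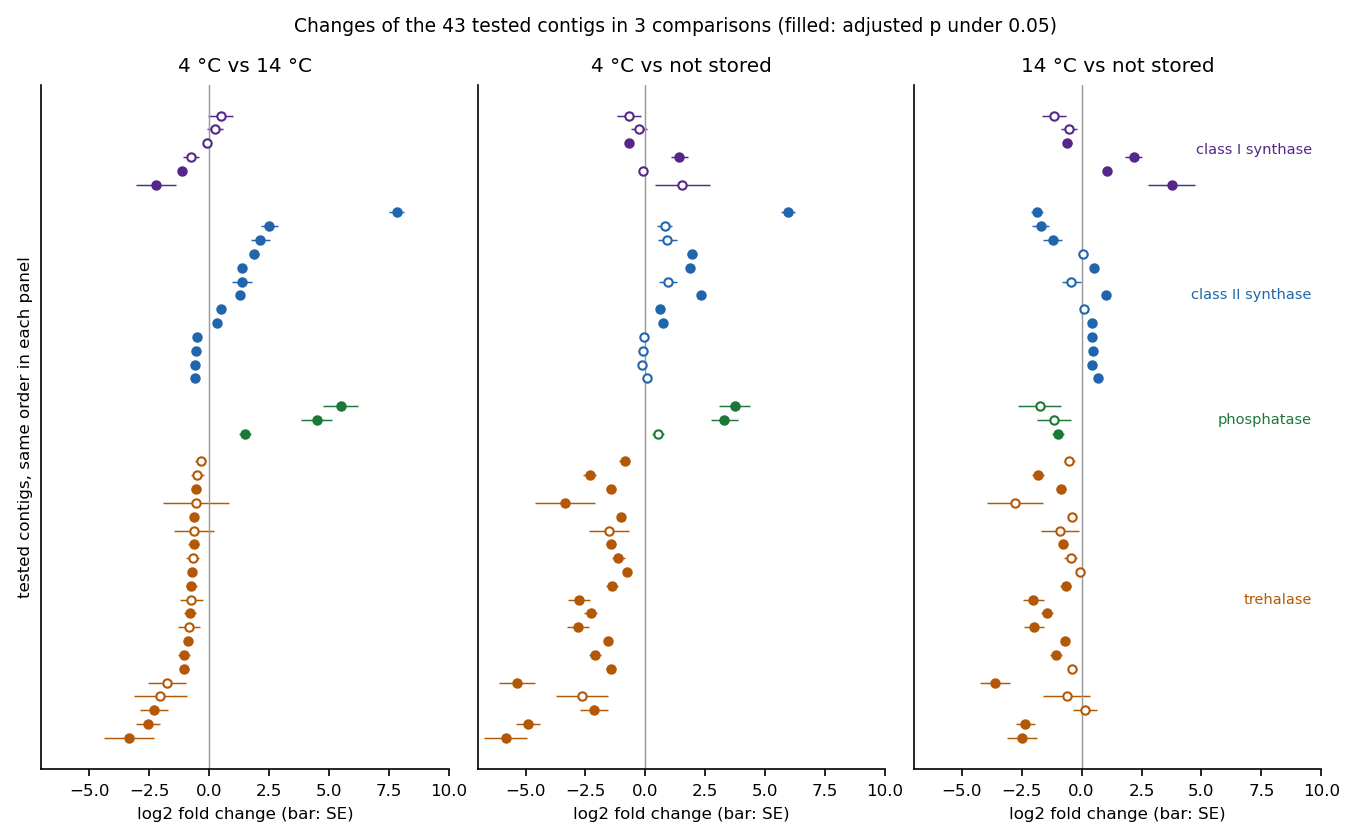
Log2 fold change of each of the 43 tested contigs (x axis, bars are standard errors) in the 3 comparisons, one row per contig in the same order in each panel, coloured by enzyme class, with filled points for adjusted p under 0.05. One class II contig, TPS11, stands at 7.82 in the first panel and 5.95 in the second, and the trehalase contigs lie left of 0 in the first 2 panels. The panels include the 5 contigs that reached the filter on low counts only through their highest group. For these a filled point is not to be read as a test.

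TPS11 (comp101598_c1), a class II protein, had by far the largest rise of the family. It stood at 2.50, 5.53 and 4.91 CPM in roots not stored, at 1.28, 1.33 and 0.935 CPM at 14 °C, and at 256, 303 and 243 CPM at 4 °C. The 3 libraries at 4 °C lay above all others and the 3 at 14 °C below all others. The log2 fold change was 7.82 ± 0.32 (SE, edgeR adjusted p = 1.3e-08) against 14 °C and 5.95 ± 0.29 (SE, adjusted p = 3.5e-08) against roots not stored. At 14 °C TPS11 fell by 1.86 ± 0.27 (SE, adjusted p = 0.00043) on the log2 scale from its level without storage. Its change was thus opposite in the 2 stores. Of the 94802 contigs tested, 644 had a larger log2 fold change at 4 °C against 14 °C, as had 295 of the 28962 with at least 5 CPM in some group.

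The 4 TPS9 contigs, also class II, were all called higher at 4 °C than at 14 °C. The most abundant, comp14943_c1, had 23.3, 23.5 and 26.0 CPM without storage, 31.8, 38.1 and 33.7 CPM at 14 °C and 83.9, 95.7 and 89.2 CPM at 4 °C. Its groups formed 3 steps without overlap, and it rose at 14 °C against no storage (log2 fold change 0.51 ± 0.11, SE, adjusted p = 0.0055) and again at 4 °C against 14 °C (1.37 ± 0.12, SE, adjusted p = 1.3e-06). TPS9 comp28920_c1 followed the same steps, from 6.05 ± 0.628 CPM without storage to 12.4 ± 1.31 at 14 °C and 30.5 ± 3.78 at 4 °C, with log2 fold changes of 1.03 ± 0.14 and 1.3 ± 0.14 (SE). The remaining TPS9 contigs did not pass the test between 14 °C and no storage. TPS9 comp77727_c1 had 7.53 ± 1.58, 7.92 ± 2.05 and 28.9 ± 2.97 CPM in roots not stored, at 14 °C and at 4 °C. TPS9 comp54537_c2 varied most within groups, with 5.11, 9.75 and 12.7 CPM without storage, 9.49, 7.43 and 3.44 CPM at 14 °C and 18.5, 13.4 and 20.9 CPM at 4 °C. Its rise against 14 °C was called (1.37 ± 0.40, SE, adjusted p = 0.016), but its log2 fold change of 0.94 ± 0.39 (SE) against no storage was not (adjusted p = 0.068). That value passed without replicate 3 at 14 °C (0.94, adjusted p = 0.026), in a fit of the 2 groups alone (adjusted p = 0.036) and by DESeq2 (adjusted p = 0.02).

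All 3 TPS7 contigs, class II as well, rose at 4 °C against 14 °C. At 14 °C 2 of them were low. TPS7 comp105671_c1 had 29.1, 75.3 and 22.8 CPM without storage, 20.1, 20.8 and 13.9 CPM at 14 °C and 71.7, 86.0 and 83.3 CPM at 4 °C. TPS7 comp46403_c1 had 7.41, 18.7 and 7.24 CPM without storage, 3.95, 2.71 and 3.55 CPM at 14 °C and 18.5, 22.2 and 17.4 CPM at 4 °C. In both, replicate 2 of the roots not stored stood near the 4 °C libraries and well above the other 2 replicates of its group. The log2 fold changes at 4 °C against 14 °C were 2.13 ± 0.40 (SE, adjusted p = 0.0018) and 2.51 ± 0.35 (SE, adjusted p = 0.00017). Against roots not stored neither passed (0.92 ± 0.39, SE, adjusted p = 0.074, and 0.80 ± 0.33, SE, adjusted p = 0.064). Both passed without replicate 2 of those roots (1.60, adjusted p = 6e-05, and 1.38, adjusted p = 0.00013). By DESeq2 (adjusted p = 0.024 and 0.035) and by limma-voom (adjusted p = 0.03 and 0.023) both passed with all libraries. At 14 °C against no storage comp46403_c1 fell by 1.71 ± 0.34 (SE, adjusted p = 0.004) on the log2 scale. comp105671_c1 fell by 1.21 ± 0.39 (SE, adjusted p = 0.043), a call lost without replicate 2 of the roots not stored (-0.55, adjusted p = 0.058), without any single replicate at 14 °C (adjusted p = 0.076 to 0.13) and without replicate 1 or 3 at 4 °C (adjusted p = 0.061 and 0.052). With no filter on low counts (adjusted p = 0.054) and by limma-voom (adjusted p = 0.085) it was not called either. The third, comp78707_c3, had 81.6 ± 3.56, 87.0 ± 5.22 and 123 ± 2.81 CPM in the same order. On the log2 scale it rose by 0.50 ± 0.10 (SE, adjusted p = 0.0015) at 4 °C against 14 °C and by 0.59 ± 0.10 (SE, adjusted p = 0.00038) against no storage.

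TPS6 (comp76485_c1) was the most abundant contig of the family in every group. It had 227, 233 and 287 CPM without storage, 353, 342 and 302 CPM at 14 °C and 406, 385 and 468 CPM at 4 °C. The groups rose in steps without overlap, but the steps were small. The log2 fold change was 0.75 ± 0.13 (SE, adjusted p = 0.00037) at 4 °C against no storage, a call that no alternative ended. At 4 °C against 14 °C it was 0.34 ± 0.13 (SE, adjusted p = 0.047), lost without any single replicate at 14 °C (0.27 to 0.38, adjusted p = 0.065 to 0.14) and without replicate 1 or 3 at 4 °C (adjusted p = 0.077 and 0.16). It was also lost under a filter of at least 1 CPM in 3 libraries (0.28, adjusted p = 0.095). At 14 °C against no storage it was 0.42 ± 0.13 (SE, adjusted p = 0.028), lost without replicate 1 or 2 of the roots not stored (adjusted p = 0.13 and 0.12) and without replicate 1 or 2 at 14 °C (adjusted p = 0.096 and 0.087).

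TPS5 was the one class II symbol that was lower at 4 °C than at 14 °C. All 4 TPS5 contigs fell at 4 °C against 14 °C, by 0.50 to 0.61 on the log2 scale, and all 4 were higher at 14 °C than without storage, by 0.43 to 0.67. At 4 °C they lay near the level of roots not stored (log2 fold changes of -0.14 to 0.06, none called). TPS5 comp101902_c3 had 47.0, 46.7 and 51.6 CPM without storage, 82.8, 74.0 and 74.8 CPM at 14 °C and 45.5, 49.2 and 57.1 CPM at 4 °C. The 14 °C libraries lay above all others, and the other 2 groups overlapped. TPS5 comp50182_c7 (48.7 ± 1.22, 67.2 ± 5.33 and 46.1 ± 4.84 CPM), comp63460_c6 (32.9 ± 0.330, 44.9 ± 4.60 and 29.9 ± 1.07 CPM) and comp83941_c2 (11.1 ± 0.416, 15 ± 0.514 and 10.6 ± 1.46 CPM) had the same order of group means. In these 3 the rise at 14 °C against no storage lay near the threshold. It missed the threshold without replicate 1 of the roots not stored for comp50182_c7 (0.42, adjusted p = 0.052) and without replicate 2 for comp63460_c6 (0.40, adjusted p = 0.052). For comp83941_c2 it missed without any single replicate of the roots not stored and without replicate 1 or 2 at 14 °C (0.35 to 0.44, adjusted p = 0.062 to 0.10).

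**Figure D2:**
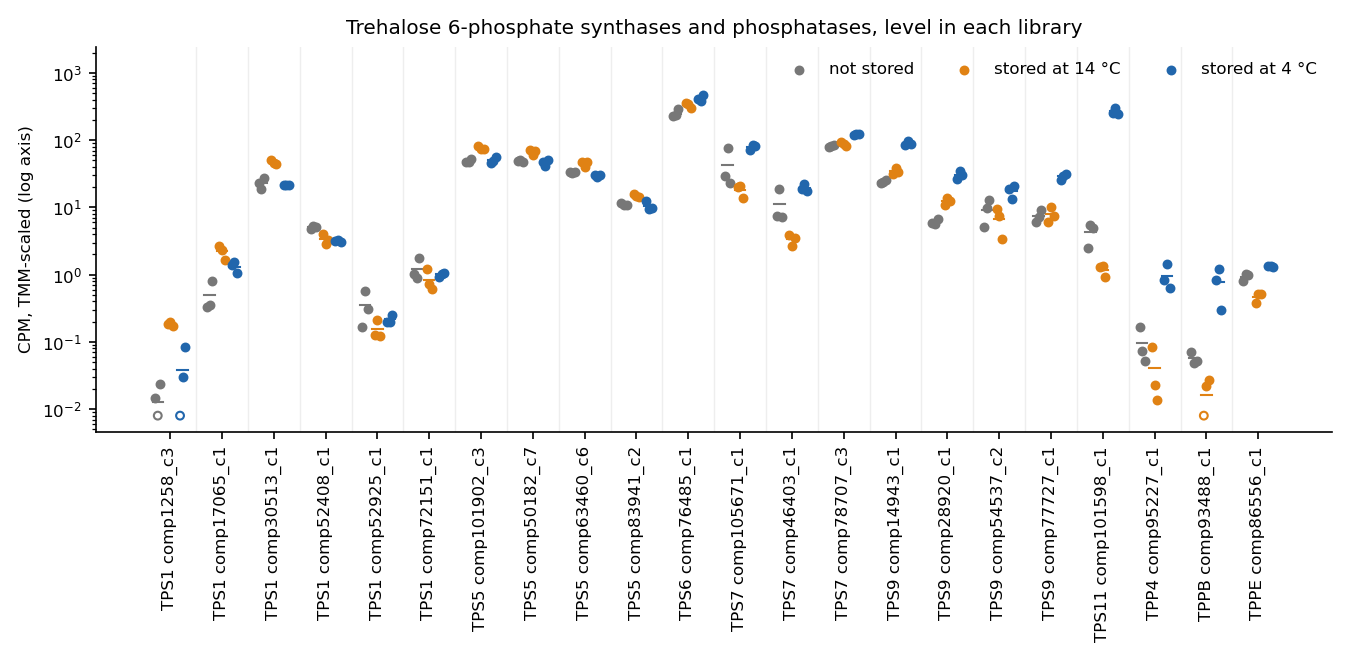
CPM in each library (log axis, one point per library, bars are group means, open points at the bottom mark libraries with no count) for the 19 synthase and 3 phosphatase contigs, coloured by storage. TPS11 at 4 °C (243 to 303 CPM) stands far above its other 6 libraries, and the TPS5 contigs are highest at 14 °C.

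Class I synthase, TPS1, was highest at 14 °C in its main contig. TPS1 comp30513_c1 had 22.7, 18.9 and 27.1 CPM without storage, 50.9, 46.2 and 43.9 CPM at 14 °C and 21.7, 21.2 and 21.6 CPM at 4 °C. The 14 °C libraries lay above all others and the other 2 groups overlapped. It rose at 14 °C against no storage (log2 fold change 1.04 ± 0.14, SE, adjusted p = 0.00018), fell at 4 °C against 14 °C (-1.13 ± 0.14, SE, adjusted p = 3.1e-05) and was not called at 4 °C against no storage (-0.09 ± 0.14, SE, adjusted p = 0.61). TPS1 comp17065_c1 was scarce without storage (0.494 ± 0.270 CPM) and rose in both stores, to 2.21 ± 0.516 CPM at 14 °C (2.18 ± 0.36, SE, adjusted p = 0.00078) and 1.32 ± 0.239 CPM at 4 °C (1.42 ± 0.35, SE, adjusted p = 0.005). TPS1 comp52408_c1 went the other way, from 5.10 ± 0.325 to 3.38 ± 0.600 CPM in the store at 14 °C and 3.16 ± 0.0929 CPM in that at 4 °C. Its fall at 4 °C against no storage was -0.69 ± 0.17 (SE, adjusted p = 0.0051) on the log2 scale. Its fall at 14 °C (-0.59 ± 0.17, SE, adjusted p = 0.021) was lost without replicate 2 of the roots not stored (adjusted p = 0.051) and without replicate 2 or 3 at 14 °C (adjusted p = 0.10 and 0.061). The fragments comp72151_c1 and comp52925_c1 were called in no comparison. The fragment comp1258_c3 held 3 counts without storage, 48 at 14 °C and 9 at 4 °C, a ratio of 15.3 between 14 °C and no storage (95% counting interval 4.94 to 77). It reached the filter on low counts only through the 14 °C libraries. A difference from them was thus built into these values, and no test of the fragment is given. Without it, 1 TPS1 contig was called at 4 °C against 14 °C.

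The 3 contigs described as phosphatases and named TPP were scarce in every group and highest at 4 °C. TPPE (comp86556_c1) had 0.793, 1.01 and 0.983 CPM without storage, 0.379, 0.511 and 0.524 CPM at 14 °C and 1.35, 1.34 and 1.28 CPM at 4 °C. The 3 groups did not overlap. TPPE rose at 4 °C against 14 °C (log2 fold change 1.49 ± 0.25, SE, adjusted p = 0.00042) and was not called against no storage (0.52 ± 0.24, SE, adjusted p = 0.094). Its fall at 14 °C against no storage (-0.97 ± 0.25, SE, adjusted p = 0.013) was lost without replicate 1 at 14 °C (-0.83, adjusted p = 0.063). The other 2 were picked out after their values were seen, since their mean stayed under 1 CPM. TPP4 (comp95227_c1) had 0.634 to 1.44 CPM at 4 °C and at most 0.165 CPM in the other 6 libraries, and TPPB (comp93488_c1) had 0.303 to 1.20 CPM at 4 °C and at most 0.0705 CPM elsewhere. For both, the 4 °C libraries lay above all others, and neither would have reached the filter on low counts without these libraries, so no test of them is given. TPPB held 4 counts in all at 14 °C, and its ratio between 4 °C and 14 °C was 49.7 (95% counting interval 19.1 to 184). This interval is no test either, since a difference from the 4 °C libraries was built into the choice of TPPB.

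Most contigs with a TPP symbol lay outside the described set. A further 26 contigs had such a symbol, no product description and the carbohydrate class of the KOG catalogue, and this list was drawn up after its values were seen. They were not tested as a list. Their summed level was highest without storage, where that of the 3 described TPP contigs was highest at 4 °C. The sum was 106, 190 and 61.2 CPM without storage against 8.18, 8.42 and 9.96 CPM at 14 °C and 24.8, 26.1 and 23.1 CPM at 4 °C. Roots not stored lay above both stores, and varied most. Several contigs highest without storage had adjacent component numbers, among them comp60146_c3, comp60147_c8 and comp60148_c10, and comp36156_c1, comp36157_c9 and comp36158_c12. They may be pieces or copies of few genes, so the sum does not show a trend of 26 separate genes. The most abundant without storage, TPPB comp60147_c8, had 23.5, 39.6 and 12.8 CPM there, 0.572, 0.369 and 0.632 CPM at 14 °C and 0.0993, 0.162 and 0.0761 CPM at 4 °C. TPPF (comp74447_c1) moved opposite to it, with 0.212, 0.264 and 0.258 CPM without storage, 2.43, 2.83 and 3.37 CPM at 14 °C and 13.2, 13.8 and 13.5 CPM at 4 °C. Its groups stood in 3 steps without overlap. Both contigs were chosen after their values were seen.

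Trehalase fell with storage, and further at 4 °C. The 24 contigs summed to 61.5, 84.2 and 66.1 CPM without storage, 43.7, 44.5 and 37.8 CPM at 14 °C and 25.6, 24.1 and 25.1 CPM at 4 °C. The 3 groups did not overlap. The sum at 4 °C was 0.353 of that without storage and 0.593 of that at 14 °C. At 4 °C against no storage 19 of 21 tested contigs fell and 0 rose, against 26.6% falling and 26.0% rising among all tested contigs (either direction 52.5%). The 2 not called, comp105301_c2 and comp5145_c8, had log2 fold changes of -1.53 ± 0.83 and -2.65 ± 1.09 (SE). The second was called under a filter of at least 1 CPM in 3 libraries (-2.70, adjusted p = 0.038) and with a replicate block (-2.65, adjusted p = 0.032). It was also called without replicate 3 of the roots not stored (-3.23, adjusted p = 0.023) and without replicate 1 at 4 °C (-4.21, adjusted p = 0.028). Leaving out the 2 contigs that reached the filter only without storage, 17 of 19 fell, where 27.4% fell and 25.8% rose among all contigs counted so. The median log2 fold change of these 19 was -1.56, against -0.03 over all contigs counted so. All libraries at 4 °C lay below all libraries without storage in 20 of 21, where libraries of these groups did not overlap for 60.0% of all tested contigs. Those 21 include the 2 contigs left out above, whose separation from the stores was favoured by the filter. At 14 °C against no storage 12 of 21 fell and 0 rose, where 15.7% of all tested contigs fell and 15.1% rose. The libraries at 14 °C lay below those without storage in 16 of 21, the same 2 contigs included, where 44.6% of all tested contigs did not overlap in either direction. Leaving out the same 2 contigs, 11 of 19 fell (median -0.79), where 16.4% fell and 15.9% rose (median 0.01).

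TRE1 comp5146_c15, the longest trehalase contig, had 8.78, 11.2 and 10.9 CPM without storage, 6.64, 7.26 and 5.37 CPM at 14 °C and 3.32, 4.00 and 3.19 CPM at 4 °C. It fell at each step, by 0.68 ± 0.17 (SE, adjusted p = 0.01) at 14 °C against no storage and by 0.88 ± 0.17 (SE, adjusted p = 0.0012) at 4 °C against 14 °C on the log2 scale. TRE1 comp91853_c10 had 9.38, 10.9 and 9.36 CPM, then 7.95, 7.50 and 7.15 CPM, and 5.37, 4.33 and 4.97 CPM in the same order. Its groups did not overlap either, but the first step was not called (-0.39 ± 0.14, SE, adjusted p = 0.055) and was without replicate 3 of the roots not stored (-0.50, adjusted p = 0.029) or without replicate 2 at 4 °C (-0.44, adjusted p = 0.039). It was also called with DESeq2 size factors, by DESeq2, by limma-voom and under the filter of 1 CPM in 3 libraries (adjusted p = 0.018 to 0.046). TRE1 comp105302_c3 changed only in the cold among these comparisons, with 7.65 ± 0.0885 CPM without storage, 7.38 ± 1.73 CPM at 14 °C and 4.49 ± 0.258 CPM at 4 °C. Its log2 fold change was -0.05 ± 0.18 (SE, adjusted p = 0.85) at 14 °C against no storage and -0.72 ± 0.18 (SE, adjusted p = 0.0056) at 4 °C against 14 °C.

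Contigs under the rice locus name fell further from no storage to 14 °C, from 34.6 ± 8.31 to 15.7 ± 0.721 CPM in sum. The TRE1 contigs went from 35.8 ± 3.90 to 26.0 ± 3.19 CPM. At 4 °C the sums were 9.42 ± 0.734 and 15.4 ± 0.140 CPM, which is 0.6 and 0.592 of those at 14 °C. The difference between the symbols was not tested. Both symbols occur within the same runs of adjacent component numbers, so they may not mark separate genes. Under the rice locus name, comp63474_c9 had 4.08, 7.53 and 6.17 CPM without storage, 2.38, 2.0 and 2.05 CPM at 14 °C and 1.34, 0.907 and 1.42 CPM at 4 °C. Its fall at 4 °C against 14 °C (-0.81 ± 0.25, SE, adjusted p = 0.019) was lost without replicate 1 at 14 °C (adjusted p = 0.064) or replicate 2 at 4 °C (adjusted p = 0.096). The contig comp63473_c6 nearly vanished in store, from 2.06, 3.40 and 2.20 CPM to 0.267, 0.0798 and 0.284 CPM at 14 °C and 0.0345, 0.144 and 0 CPM at 4 °C. It fell by 3.60 ± 0.63 (SE, adjusted p = 0.0016) at 14 °C and by 5.36 ± 0.74 (SE, adjusted p = 0.0001) at 4 °C on the log2 scale, both against no storage. Between the stores its value of -1.76 ± 0.79 (SE, adjusted p = 0.09) was not called, and it was without replicate 2 at 14 °C (-2.17, adjusted p = 0.046) or replicate 2 at 4 °C (-3.78, adjusted p = 0.008), and by DESeq2 (adjusted p = 0.025). The contig comp1444_c8 fell at both steps by 1.05 on the log2 scale (SE 0.25 and 0.26, adjusted p = 0.0086 and 0.0058), from 4.25 ± 1.46 to 2.05 ± 0.369 and 0.987 ± 0.124 CPM. Among the shortest pieces, TRE1 comp50163_c7 held 82 counts without storage, 16 at 14 °C and 1 at 4 °C, a ratio of 14.3 between 14 °C and 4 °C (95% counting interval 2.23 to 601). This piece reached the filter on low counts only through the roots not stored, and no test of it is given. Of the 3 contigs not tested, comp38484_c7 and comp63472_c4 held 13 and 29 counts without storage and at most 2 in either store. The third, comp50168_c44, did not follow this order. It held 20.8 counts without storage (18.1 of them in replicate 2), 10.4 at 14 °C and 16.0 at 4 °C.

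**Figure D3:**
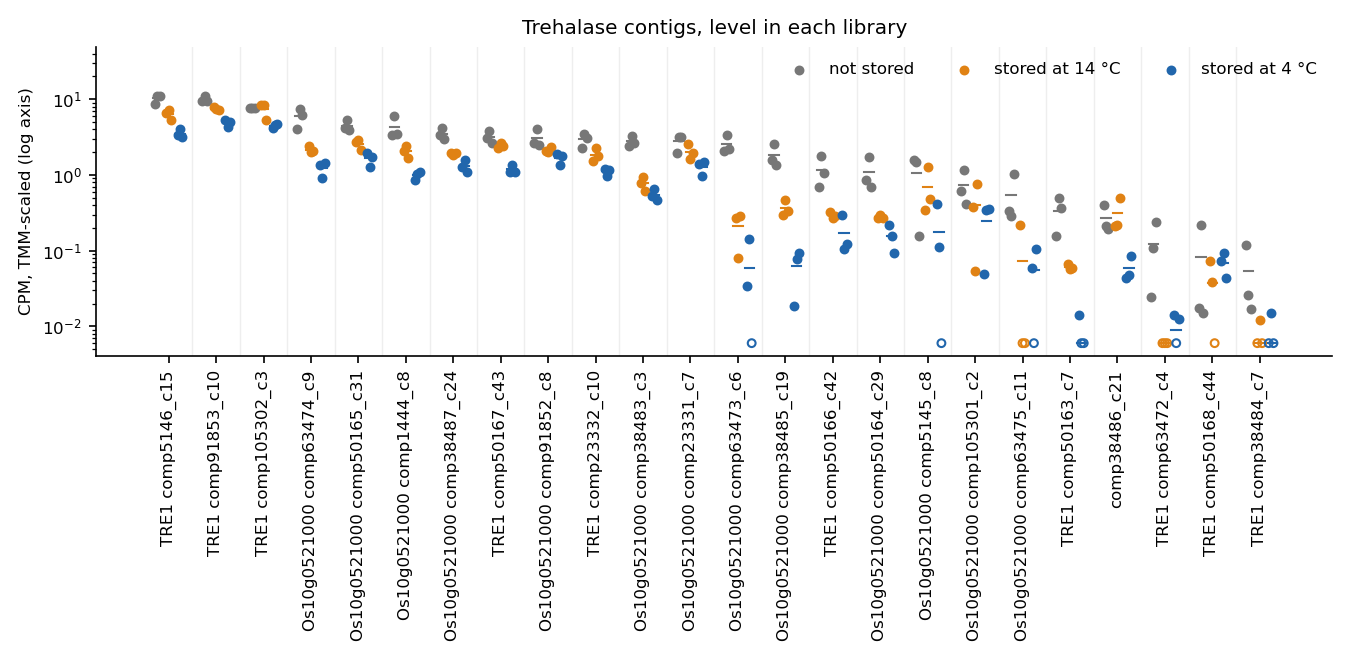
CPM in each library (log axis, one point per library, bars are group means, open points at the bottom mark libraries with no count) for the 24 trehalase contigs, ordered by their mean without storage. Summed over the 24 contigs, the level is 61.5 to 84.2 CPM without storage, 37.8 to 44.5 CPM at 14 °C and 24.1 to 25.6 CPM at 4 °C. The contig comp38486_c21 has its highest mean at 14 °C.

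Other transcripts moved in the same order as trehalase. The 116 contigs described as light-harvesting or photosystem proteins, markers of green tissue, summed to 1670 to 2440 CPM without storage, 575 to 596 CPM at 14 °C and 174 to 202 CPM at 4 °C, and none of them was at 0 in all libraries. Beta-amylase, an abundant protein of the storage root, summed over 25 contigs to 9380 to 11000, 4700 to 5190 and 718 to 743 CPM in the same order. Their part in the fall of trehalase was not tested.

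The makeup of the synthase family was compared per length, with the TPM of the deposited table, within each library. Without storage, TPS5 made 37.5% ± 2.59 of the summed TPM of the 19 synthase contigs, TPS6 32.0% ± 3.35, TPS7 17.9% ± 5.0, TPS9 6.98% ± 0.738, TPS1 5.05% ± 0.501 and TPS11 0.615% ± 0.199. At 14 °C TPS5 and TPS6 still led with 42.1% ± 2.57 and 33.6% ± 1.47, and TPS11 held 0.135% ± 0.0205. At 4 °C TPS6 led with 28.7% ± 2.41, TPS11 followed with 20.7% ± 2.54 and TPS5 with 19.2% ± 1.21, which overlapped between libraries. TPS9 held 13.4% ± 0.522 at 4 °C and TPS1 2.38% ± 0.053. Ranked by mean TPM among the 46 contigs, TPS11 was at place 34 without storage, 38 at 14 °C and 2 at 4 °C, where it had 87.0 ± 5.39 TPM and TPS6 122 ± 20.9. Class I summed to 10.1 ± 0.724 TPM at 4 °C against 414 ± 37.7 for class II, and to 19.5 ± 2.70 against 295 ± 26.4 TPM at 14 °C. Trehalase summed to 33.7 ± 3.39 TPM at 4 °C. The order by share depends on the division by length. The 4 TPS5 contigs were 1022 to 2174 bases long and the TPS6 contig 3479. Pieces of one transcript would each add to a sum per length. Summed in CPM, TPS6 stood above TPS5 without storage (249 ± 32.9 against 141 ± 1.79) and at 14 °C (332 ± 27.1 against 204 ± 13.8). TPM of the table are not TMM-scaled, so levels between groups are compared in CPM alone.

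**Figure D4:**
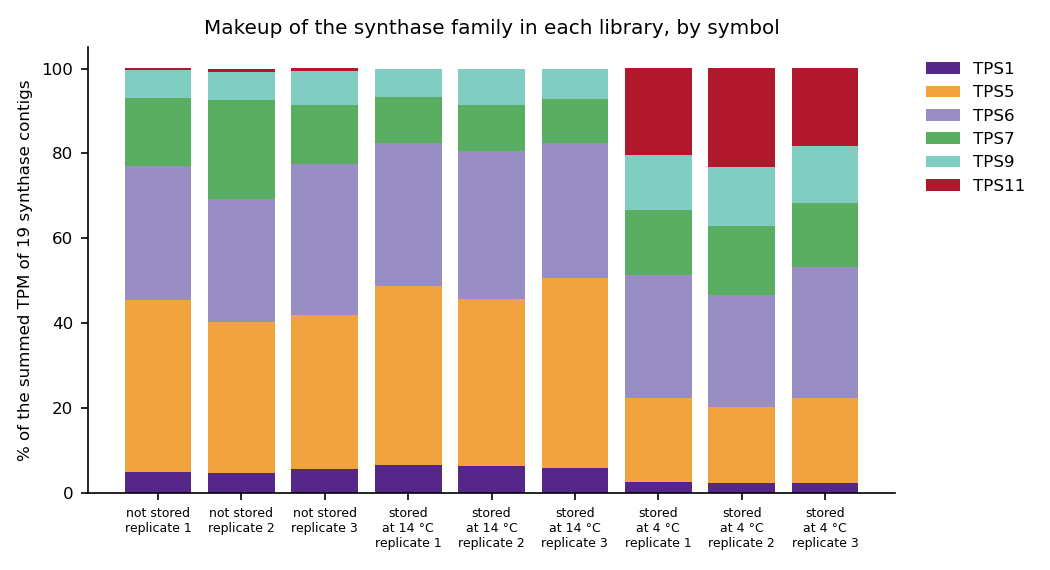
Share of each TPS symbol in the summed TPM of the 19 synthase contigs (y axis, percent) in each of the 9 libraries, stacked. TPS11 takes 18.2% to 23.3% in the 3 libraries at 4 °C and under 1% in the other 6, and TPS5 takes 17.9% to 20.0% at 4 °C. Shares are per contig length, and the 4 TPS5 contigs are shorter than that of TPS6, which raises the share of TPS5.

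Summed over class II, the level was 577 ± 45.1 CPM without storage, 708 ± 40.7 at 14 °C and 1210 ± 47.6 at 4 °C. Without TPS11 the sums were 573 ± 43.5, 707 ± 40.5 and 946 ± 57.8 CPM, so other contigs contributed to the higher sum at 4 °C. At 4 °C against no storage 6 of 13 class II contigs rose and 0 fell, where 41.5% of contigs with at least 5 CPM rose and 31.7% fell. At 14 °C against no storage 7 rose and 3 fell, where 22.8% and 26.3% did, and the 7 became 4 without replicate 1 or without replicate 2 of the roots not stored. Class I summed to 30.1 ± 4.67, 53.8 ± 4.85 and 27.2 ± 0.129 CPM in roots not stored, at 14 °C and at 4 °C. Over the whole family 9 contigs rose and 20 fell at 4 °C against no storage, where 26.0% and 26.6% of all tested contigs did. At 14 °C against no storage 10 rose and 17 fell, where 15.1% and 15.7% did (30.9% in either direction). Both counts include the 5 contigs that reached the filter only through their highest group. Of the other 38, 7 rose and 18 fell at 4 °C against no storage, where 25.8% and 27.4% of all contigs counted so did. For 14 °C against no storage 9 of the 38 rose and 16 fell, where 15.9% and 16.4% did.

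Neighbouring steps of the pathway moved in both directions. Enzymes that supply UDP-glucose, the glucose donor of TPS, had 7 contigs, of which 4 rose and 1 fell at 4 °C against 14 °C (median log2 fold change 0.66), where 23.8% and 24.0% of all tested contigs did. The fall was lost without replicate 2 at 4 °C and under the filter of 1 CPM in 3 libraries. The UDP-sugar pyrophosphorylase USP (comp53582_c1) had 21.1 ± 1.28, 27.2 ± 0.208 and 43.0 ± 3.26 CPM in roots not stored, at 14 °C and at 4 °C. Between the stores it rose by 0.66 ± 0.11 (SE, adjusted p = 0.00033) on the log2 scale. The most abundant of them, the UTP-glucose-1-phosphate uridylyltransferase comp51105_c1, had 276 ± 27.4, 273 ± 20.7 and 322 ± 28.9 CPM and was called in no comparison. Of 47 tested contigs of hexokinase, phosphoglucomutase and glucose-6-phosphate isomerase, which supply hexose phosphates, 6 rose and 18 fell at 4 °C against 14 °C (median -0.47), against the same 23.8% and 24.0%. Phosphoglucomutase, which interconverts glucose 1-phosphate and glucose 6-phosphate, fell in 7 of 13 contigs and rose in 0. PGM1 (comp57568_c4) went from 315 ± 23.1 CPM at 14 °C to 115 ± 9.57 CPM at 4 °C (log2 fold change -1.45 ± 0.13, SE, adjusted p = 2.3e-06), and PGMP (comp33115_c1) from 42.7 ± 0.880 to 4.89 ± 0.640 CPM (-3.12 ± 0.14, SE, adjusted p = 9.5e-09). Hexokinase, which phosphorylates glucose, rose in 5 of 30 contigs and fell in 10 at 4 °C against 14 °C (median -0.41). These counts weigh scarce and abundant contigs alike. The most abundant hexokinase contig, HXK1 comp104233_c2, went from 44.6 ± 1.11 CPM at 14 °C to 78.5 ± 4.03 CPM at 4 °C. HXK2 comp91841_c1 went the other way, from 28.2 ± 1.44 to 16.6 ± 0.640 CPM. Both were chosen after their values were seen. At 14 °C against no storage hexokinase rose in 15 and fell in 0, where 15.1% of all tested contigs rose and 15.7% fell. With a single library left out the 15 became 10 to 15.

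The table describes 21 contigs as subunits of AMP-activated protein kinase, the animal kinase related to SnRK1, and 3 of them carry symbols of other kinases (CIPK2, MAP3K3 and MEKK1). At 4 °C against 14 °C 4 of the 21 rose and 7 fell, MAP3K3 among the latter (median -0.09), where 23.8% and 24.0% of all tested contigs did. The 4 became 2 without replicate 1 at 14 °C or without replicate 1 at 4 °C. The catalytic subunit KIN10 had contigs in both directions. KIN10 comp11197_c1, the most abundant of the list, rose from 111 ± 12.2 CPM at 14 °C to 164 ± 5.57 CPM at 4 °C (log2 fold change 0.57 ± 0.11, SE, adjusted p = 0.00097). KIN10 comp44766_c1 fell from 43.2 ± 1.09 to 16.6 ± 1.63 CPM (-1.38 ± 0.12, SE, adjusted p = 1.8e-06).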

How the data were processed

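RNA of 9 libraries, 3 per group, was measured by sequencing. The authors deposited one table with, per the file headers, estimated counts (expected counts, fractional), TPM, RPKM, contig length and effective length. The deposited TPM sum to one constant per library, and the deposited RPKM were not used beyond a check of units. Tools listed in the submitters' processing notes, with no role given, are StringTie 1.3.4d, HISAT2 2.0.4, cutadapt 1.9, edgeR and DESeq2. The tool that made the estimated counts and the strand are not given in the sources used here, and the extraction protocol in the labels names another tissue, so library preparation is taken as not known. Symbols and descriptions are those of the table, and 0 of the 46 identifiers matched the reference gene table. Contig sequences were not used here.

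Estimated counts were rounded and fitted in edgeR 4.0.16 (R 4.3.3) over all 9 libraries with TMM scaling, filterByExpr and robust quasi-likelihood. The SE is the log2 fold change divided by the square root of F. P-values measure the spread between pools of roots. Reads had no molecular barcodes, so intervals (exact binomial, 95%) and floors cover counting error only. The members and lists were chosen with earlier results of these data known. Named contigs were those with at least 5 CPM in a group, per enzyme class and comparison the largest called rise and fall whose higher group averaged 1 CPM or more, and 2 per neighbouring list (the most abundant, and the smallest adjusted p between stores). Alternatives were DESeq2 1.42.0 size factors and Wald test, no and a stricter filter, a replicate block, only the 2 groups compared, limma-voom (limma 3.58.1) and each library left out. A run of the fit on simulated counts recovered most of the largest changes put in and few of the smallest. Far fewer contigs were changed in that run than were called here, so it does not measure the power of these tests. Python 3.11.15, pandas 2.3.3 and matplotlib 3.10.9 made tables and figures.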

Additional observations from a re-analysis of the deposited data

How the results depend on the processing

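The 6 counts of trehalose contigs called higher or lower stayed within 1.5 times their value under all 16 alternatives run, and in a count chosen after seeing the data, of the 38 contigs that reached the filter without their highest group (10 higher and 16 lower at 4 °C against 14 °C, 7 and 18 at 4 °C against no storage, 9 and 16 at 14 °C against no storage). With each library left out in turn, 11 to 12 contigs were higher and 14 to 19 lower at 4 °C against 14 °C, 9 to 11 and 19 to 20 at 4 °C against no storage, and 7 to 10 and 12 to 18 at 14 °C against no storage. With the replicate number as a block the counts were 11 higher and 16 lower, 11 and 21, and 9 and 16 in the same order. The block ended both calls of TPS6 that involve 14 °C (0.33, adjusted p = 0.093, against 4 °C and 0.43, adjusted p = 0.056, against no storage). The correlation of same-numbered libraries in their deviation from group means was over 0.1 in 2 of 9 pairs (range -0.501 to 0.308). It was 0.0778 to 0.308 between no storage and 4 °C, and -0.501 to -0.0285 in pairs with 14 °C. Deviations from a mean of 3 libraries are tied to each other, so these values cannot settle whether the replicate numbers pair the libraries. Of 153 results on 51 contigs, 118 kept their call in every alternative that tested them and 35 did not, and 0 changed sign where a call was involved. DESeq2 scaling moved the median of all contigs by at most 0.04 on the log2 scale. Under the filter of at least 1 CPM in 3 libraries 33 of the 46 contigs were tested, and TPP4 and TPPB were not. The depth limits the fragments most, since several of the trehalase and TPP contigs hold under 10 counts in a group.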
